A study of Mus musculus with 19 samples.

Results

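This report is about 10 mouse genes that interferons are known to induce, namely 4 genes of ADP-ribosylation (*Parp9*, *Parp12*, *Parp14* and *Dtx3l*), 3 tripartite motif (TRIM) genes (*Trim21*, *Trim25* and *Trim30a*), the nuclear body gene *Sp100*, the antiviral gene *Samd9l* and the secreted glycoprotein gene *Lgals3bp*. They were picked by name, with earlier results of these data known. Each is a row of the count table with that name in the GENCODE M21 annotation, so that the group holds 10 of 41128 rows. Messenger RNA of 3 brain regions, the prefrontal cortex (PFC), the striatum (STR) and the cerebellum (CB), was sequenced from C57BL/6 mice aged 3 months to compare spinocerebellar ataxia type 17 (SCA17) knock-in (KI) mice with age-matched wild-type (WT) mice. KI mice carry *Tbp* with an expanded polyglutamine tract (105Q) in the germline. They descend from floxed *Tbp* mice crossed with EIIa-Cre mice, whose Cre acts in the early embryo, and then from crosses to WT, so the mutant TATA box-binding protein is made from its own promoter in every cell type. The cerebellum had 3 WT and 4 KI libraries, and the striatum and the prefrontal cortex had 3 of each genotype. The labels do not give the sex of the mice.

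Interferons act on a cell-surface receptor whose signal activates the transcription factor complex ISGF3, and ISGF3 binds the interferon-stimulated response element (ISRE) near the start of its target genes. The products of such genes act at several layers. PARP enzymes add ADP-ribose to proteins, TRIM proteins and DTX3L are ubiquitin ligases that steer innate sensing and remove viral components, and SP100 sits with PML in nuclear bodies that silence foreign DNA. In the brain this program is known from viral infection and from reactive microglia and astrocytes.

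The ISRE is printed here because it is the element through which the pathway is known to act. RefSeq promoter windows of GRCm38.p6, from 250 bases before to 50 bases after a start site, were at hand for 8 of the 10 genes, and *Parp9* and *Parp14* were not among them. The ISRE core GAAANNGAA, searched on both strands, was found in the windows of 4 of these 8 genes, *Trim21*, *Trim25*, *Trim30a* and *Samd9l*, against 9.76% of the 27025 genes with a window and 8.56% of all 32851 windows. The stretches below run from 50 bases before the start to 50 bases from it on, 5′ to 3′ on the gene's strand, with each match to the ISRE core in capitals; *Lgals3bp*, the gene with the largest change, is added as a gene whose window held no match. *Trim21* (chr7:102565433-102565532, minus strand) held 2 overlapping matches, at bases 14 to 22 and 20 to 28 after the start. *Trim25* (chr11:88999353-88999452, plus strand) held a match on the opposite strand that ended at base -1. *Trim30a* (chr7:104465144-104465243, minus strand) held a match on the opposite strand from base -35 to -27, and its other window, at a start within the gene, held it at bases 4 to 12. *Samd9l* (chr6:3399522-3399621, minus strand) held a match at bases 39 to 47. The *Lgals3bp* stretch lies at chr11:118401910-118402009 on the minus strand.
Trim21: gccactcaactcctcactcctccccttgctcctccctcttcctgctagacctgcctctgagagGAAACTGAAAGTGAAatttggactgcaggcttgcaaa
Trim25: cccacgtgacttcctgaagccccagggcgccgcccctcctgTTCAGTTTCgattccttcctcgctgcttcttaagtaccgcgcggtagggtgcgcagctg
Trim30a: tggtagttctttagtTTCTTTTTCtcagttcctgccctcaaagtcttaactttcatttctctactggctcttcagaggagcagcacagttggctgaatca
Samd9l: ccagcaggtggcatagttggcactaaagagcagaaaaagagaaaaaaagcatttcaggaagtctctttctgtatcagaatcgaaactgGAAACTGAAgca
Lgals3bp: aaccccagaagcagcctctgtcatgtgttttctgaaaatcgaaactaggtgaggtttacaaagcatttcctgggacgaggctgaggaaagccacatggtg

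The STAT palindrome TTCNNNGAA was in 8.3% of all windows and the TATA box TATAAA in 13.6%, and neither stood in a window of the 8 genes. A match of letters is a description of the window, and binding was not measured.

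**Figure D1:**
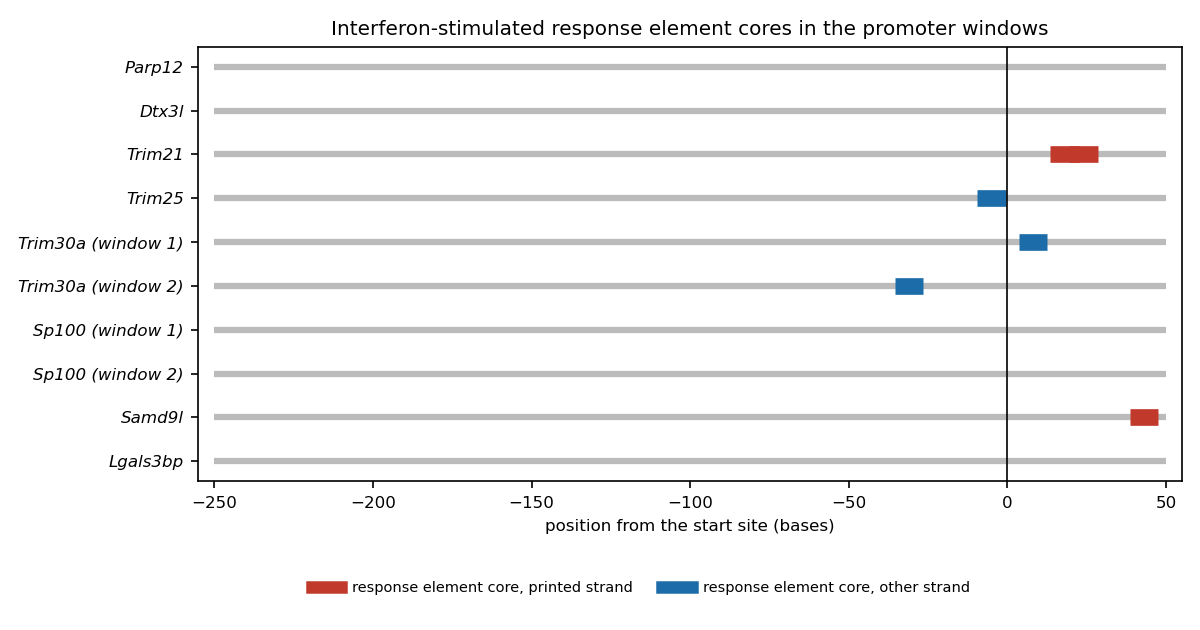
Matches to the ISRE core in the promoter windows of 8 of the 10 genes, by position from the start site in bases (x axis); each grey line is 1 window of 300 bases, red marks a match on the strand of the gene and blue a match on the other strand, both drawn to scale. All 6 matches lie between base -35 and base 47, and the windows of *Parp12*, *Dtx3l*, *Sp100* and *Lgals3bp* hold none.

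The 19 libraries held 10639110 to 17431284 counts each, with a median of 15082703. Levels are given as CPM, the counts of a gene scaled to a common library size, and fold changes as log2 of KI over WT from edgeR's quasi-likelihood fit over all 19 libraries, in which a gene was called at a Benjamini-Hochberg adjusted p under 0.05 among the 16841 genes tested. All 10 genes passed the filter on low counts. Marker genes followed the labelled regions: the summed CPM of 5 cerebellar markers was 2960 to 4000 in the cerebellum and 204 to 545 elsewhere, that of 5 striatal markers was 2950 to 5930 in the striatum and 85.8 to 638 elsewhere, and that of 4 cortical markers was 1160 to 1880 in the prefrontal cortex and 10.9 to 566 elsewhere. Libraries of the striatum and prefrontal cortex with the same genotype and number deviated together across genes (Pearson's r 0.23 to 0.37 over 6 such pairs, against -0.25 to -0.08 over the 12 pairs with other numbers). In each of these 6 pairs both libraries had more *Xist* than Y-linked RNA, or both had less. The labels do not say whether such libraries came from the same mouse, and the main fit took all 19 libraries as separate.

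All 10 genes were higher in KI than in WT in each of the 3 regions, at an unadjusted p under 0.05 in every case, which 10.1%, 8.12% and 5.93% of all genes tested reached in the cerebellum, striatum and prefrontal cortex. 7 of the 10 were called higher in the cerebellum, against 0.517% of all genes tested, and 8 in the striatum, against 0.392%. In the prefrontal cortex edgeR called 0 of the 10, against 0.0891% of all genes, although an unadjusted p under 0.05 was reached there by all 10; DESeq2 called 3, *Trim25*, *Sp100* and *Lgals3bp*. For the mean effect over the 3 regions all 10 were called, against 0.837%. None was called lower. The cerebellar, striatal and prefrontal medians of the log2 fold change over the 10 genes were 1.30, 1.33 and 1.00, beside 0.01, -0.01 and 0.00 for all genes tested.

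Every KI library lay above every WT library for 9 of the 10 genes in the cerebellum, where 5.82% of all genes showed this separation. It held for 10 of 10 in the striatum, against 5.65%, and for 10 of 10 in the prefrontal cortex, against 4.38%. The exception was *Dtx3l* in the cerebellum. *Parp9*, *Parp12*, *Trim21*, *Trim30a*, *Samd9l* and *Lgals3bp* were called in both the cerebellum and the striatum, *Trim25* in the cerebellum alone, *Dtx3l* and *Sp100* in the striatum alone, and *Parp14* in no single region.

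**Figure D2:**
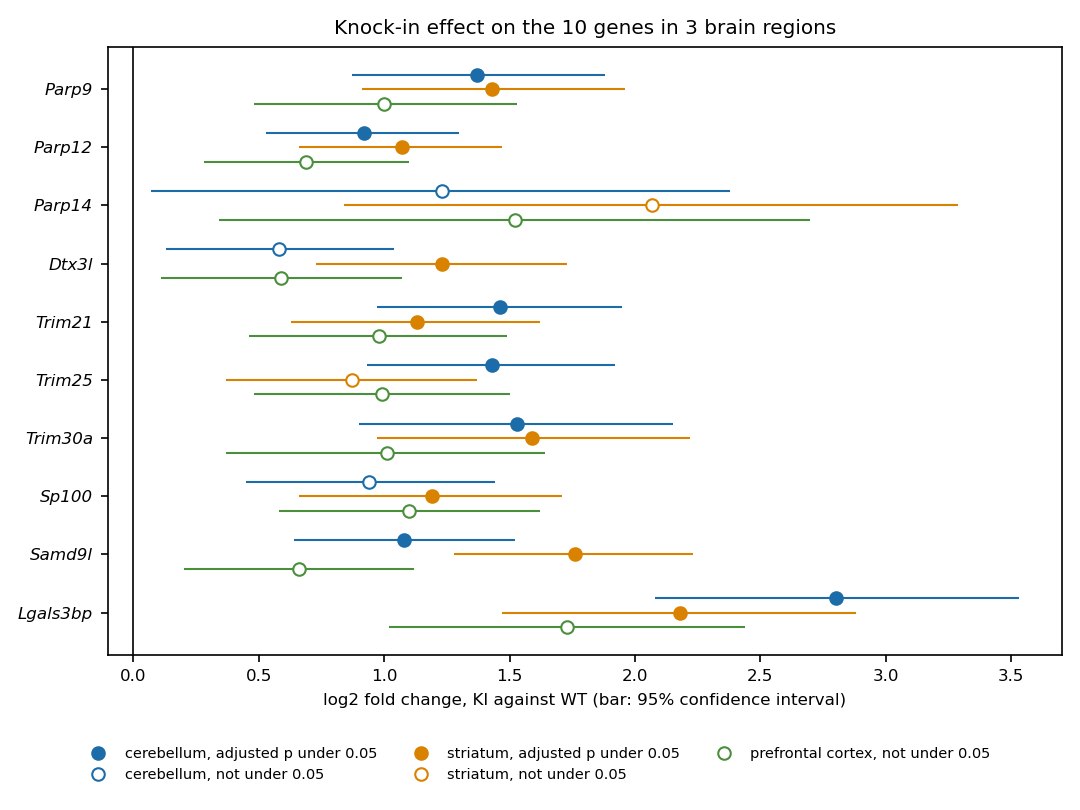
Log2 fold change of KI against WT (x axis) for the 10 genes (y axis) in the cerebellum, striatum and prefrontal cortex; points are edgeR estimates, bars their 95% confidence intervals, and filled points have an adjusted p under 0.05. All 30 intervals lie above 0, from the lowest estimate of 0.58 for *Dtx3l* in the cerebellum to the highest of 2.80 for *Lgals3bp* in the cerebellum.

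*Parp9* codes for a macrodomain protein that works as a partner of the ubiquitin ligase DTX3L. Its level in the cerebellum was 4.05, 3.47 and 2.99 CPM in the WT libraries and 9.96, 9.98, 8.52 and 7.98 CPM in the KI libraries, and in the striatum it was 4.07, 4.24 and 4.79 CPM against 12.2, 8.14 and 15.1 CPM. In the prefrontal cortex it was 3.15, 3.39 and 5.73 CPM in WT and 7.51, 7.04 and 10.2 CPM in KI. The groups did not overlap in any region, and the gap was narrowest in the prefrontal cortex, where the third WT library lay closest to the KI libraries. *Parp9* rose 2.59-fold in the cerebellum (log2 fold change 1.37 ± 0.239 SE, adjusted p = 0.00656, edgeR) and 2.70-fold in the striatum (1.43 ± 0.249, adjusted p = 0.0112), while its fold in the prefrontal cortex was 2.01 (adjusted p = 0.313).

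*Dtx3l*, the ligase of that pair, moved less in the cerebellum. Its WT libraries there had 5.14, 4.52 and 3.80 CPM and its KI libraries 7.99, 8.09, 6.11 and 4.78 CPM, so that KI replicate 4 fell within the WT range. In the striatum the WT libraries had 3.47, 1.93 and 2.55 CPM and the KI libraries 5.95, 6.82 and 6.01 CPM, with no overlap. *Dtx3l* rose 2.35-fold in the striatum (log2 fold change 1.23 ± 0.236 SE, edgeR adjusted p = 0.0209), and its fold was 1.50 in the cerebellum (adjusted p = 0.319) and 1.51 in the prefrontal cortex (adjusted p = 0.724). The difference of its effect between cerebellum and striatum was -0.65 on the log2 scale, with a 95% confidence interval from -1.32 to 0.02, and was not called (adjusted p = 0.761, edgeR).

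*Parp14*, a mono-ADP-ribosyltransferase with several macrodomains, was the least abundant of the 10, with 434 counts in all 19 libraries together and between 1 and 49 in a library. In the striatum its WT libraries had 0.735, 0.669 and 0.464 CPM and its KI libraries 1.62, 3.08 and 3.24 CPM. In the prefrontal cortex WT replicate 2 had 0.0678 CPM, which was 1 count, beside 1.44 and 1.21 CPM in the other WT libraries and 2.18 to 3.07 CPM in the KI libraries. In the cerebellum the WT libraries spanned 0.328 to 1.16 CPM and the KI libraries 1.51 to 1.94 CPM. The groups were apart in all 3 regions, but the intervals were the widest of the 10 genes, from 0.84 to 3.29 in the striatum around a log2 fold change of 2.07 (adjusted p = 0.182, edgeR), and the gene was called for the mean over the regions alone (log2 fold change 1.61 ± 0.325 SE, adjusted p = 0.0164, edgeR). That call was lost with a replicate block within each region (adjusted p = 0.0998, edgeR) and without the KI libraries numbered 3 of the striatum and prefrontal cortex (adjusted p = 0.0634, edgeR).

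*Parp9*, *Dtx3l* and *Parp14* are neighbours on mouse chromosome 16 within 140 kb of GRCm38, at chr16:35938470-35972605 on the plus strand, chr16:35926511-35939151 on the minus strand and chr16:35832874-35871544 on the minus strand. *Parp9* and *Dtx3l* overlap head to head by 458 exonic bases, which is 9.4% of the exonic length of *Parp9* and 8.0% of that of *Dtx3l*. The library kit does not mark strand, so reads from the overlap cannot be assigned to either gene by strand. Of the other genes within 200 kb that could be tested, *Sema5b*, *Dirc2*, *Hspbap1*, *Kpna1*, *Wdr5b*, *Fam162a* and *Ccdc58*, none was called in any region, and their log2 fold changes ran from -0.27 to 0.19.

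*Parp12*, a zinc finger mono-ADP-ribosyltransferase at chr6:39086410-39118349, was the most abundant PARP gene of the group. Its cerebellar libraries had 12.4, 13.9 and 14.8 CPM in WT and 27.6, 27.6, 24.3 and 24.0 CPM in KI. Striatal libraries had 10.8, 13.8 and 9.58 CPM in WT and 19.9, 22.1 and 29.4 CPM in KI. The cerebellar and striatal groups lay far apart. *Parp12* rose 1.89-fold in the cerebellum (log2 fold change 0.92 ± 0.181 SE, edgeR adjusted p = 0.0186) and 2.09-fold in the striatum (1.07 ± 0.193, adjusted p = 0.0154). In the prefrontal cortex the WT libraries reached 13.4 CPM and the KI libraries started at 14.7 CPM, and the fold was 1.62 (adjusted p = 0.465).

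*Trim21*, a ubiquitin ligase that doubles as a cytosolic antibody receptor (chr7:102557921-102565486), had 2.57, 2.82 and 2.18 CPM in WT cerebellum and 6.25, 8.15, 7.51 and 6.05 CPM in KI cerebellum. Striatal libraries had 5.28, 5.50 and 3.71 CPM in WT and 9.06, 9.46 and 13.2 CPM in KI, and prefrontal libraries had 2.95, 3.19 and 2.56 CPM in WT and 6.12, 3.82 and 7.26 CPM in KI. No KI library fell into the WT range, and KI replicate 2 of the prefrontal cortex came closest to it. *Trim21* rose 2.76-fold in the cerebellum (log2 fold change 1.46 ± 0.233 SE, adjusted p = 0.00307, edgeR) and 2.19-fold in the striatum (1.13 ± 0.235, adjusted p = 0.0325), and its fold was 1.97 in the prefrontal cortex (adjusted p = 0.313).

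*Trim25*, the ubiquitin ligase best known as a cofactor of the RNA sensor RIG-I (chr11:88999376-89020293), had 4.05, 2.95 and 3.32 CPM in WT cerebellum and 7.88, 11.4, 8.68 and 9.13 CPM in KI cerebellum. It rose 2.69-fold there (log2 fold change 1.43 ± 0.234 SE, edgeR adjusted p = 0.00394). Its striatal libraries had 6.95, 5.05 and 6.57 CPM in WT and 12.9, 10.5 and 10.5 CPM in KI, a fold of 1.82 that was not called (adjusted p = 0.161), although the groups lay clear of each other. The WT mean was 6.19 CPM in the striatum and 3.44 CPM in the cerebellum, and the KI means were 11.3 and 9.26 CPM. The difference of the KI effect between the regions was 0.56 with a 95% confidence interval from -0.14 to 1.25 and was not called (adjusted p = 0.835, edgeR).

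*Trim30a*, a TRIM gene of rodents known to dampen NF-kB signalling (chr7:104409025-104465193), had 1.86, 1.64 and 1.21 CPM in WT cerebellum and 5.24, 5.76, 4.26 and 3.02 CPM in KI cerebellum. Striatal libraries had 3.47, 2.90 and 2.63 CPM in WT and 6.08, 7.92 and 13.2 CPM in KI, with KI replicate 3 far above the other KI libraries. It rose 2.88-fold in the cerebellum (log2 fold change 1.53 ± 0.297 SE, adjusted p = 0.0159, edgeR) and 3.02-fold in the striatum (1.59 ± 0.297, adjusted p = 0.0185), and its fold was 2.01 in the prefrontal cortex (adjusted p = 0.512). Without KI replicate 3 the log2 fold change in the striatum was 1.22 and was not called. *Trim30a* belongs to a multigene family, and how reads that fit several members were counted is not given in the sources used here, so its counts are to be read as uncertain; its relative *Trim30d* had log2 fold changes of 1.02, 2.46 and 1.51 in the cerebellum, striatum and prefrontal cortex and was not called.

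*Sp100*, a core component of PML nuclear bodies (chr1:85649988-85709998), had 4.56, 7.14 and 4.77 CPM in WT cerebellum and 8.44, 12.2, 11.0 and 10.7 CPM in KI cerebellum. Its striatal libraries had 6.28, 5.42 and 5.87 CPM in WT and 11.0, 15.7 and 13.3 CPM in KI, and its prefrontal libraries 4.66, 5.97 and 7.21 CPM in WT and 9.51, 10.9 and 18.1 CPM in KI. All KI libraries lay above all WT libraries, with WT replicate 2 of the cerebellum the closest to them. *Sp100* rose 2.28-fold in the striatum (log2 fold change 1.19 ± 0.247 SE, edgeR adjusted p = 0.0325). Its fold was 1.92 in the cerebellum (adjusted p = 0.0740) and 2.15 in the prefrontal cortex (adjusted p = 0.171).

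*Samd9l*, a cytoplasmic antiviral factor that restrains cell growth (chr6:3372257-3399572), had 3.99, 5.70 and 2.99 CPM in WT cerebellum and 8.78, 8.92, 8.85 and 9.37 CPM in KI cerebellum, a narrow KI group. In the striatum it had 3.61, 3.79 and 2.78 CPM in WT and 11.2, 9.31 and 14.1 CPM in KI, and in the prefrontal cortex 5.20, 5.29 and 6.88 CPM in WT and 10.1, 9.81 and 7.55 CPM in KI. It rose 2.11-fold in the cerebellum (log2 fold change 1.08 ± 0.209 SE, adjusted p = 0.0154, edgeR) and 3.39-fold in the striatum (1.76 ± 0.225, adjusted p = 0.000572), and its fold was 1.58 in the prefrontal cortex (adjusted p = 0.620). The difference between striatum and prefrontal cortex was the largest among the 10 genes for that pair of regions, at 1.10 with a 95% confidence interval from 0.44 to 1.75, and it did not pass the adjustment over all genes (adjusted p = 0.967, edgeR).

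*Lgals3bp*, a secreted glycoprotein that binds galectins and matrix proteins (chr11:118392751-118402092), changed most. In the cerebellum it had 13.3, 11.5 and 8.82 CPM in WT and 75.2, 64.7, 120 and 53.7 CPM in KI. Striatal libraries had 46.1, 47.1 and 24.6 CPM in WT and 167, 131 and 235 CPM in KI, and prefrontal libraries 15.3, 18.2 and 29.6 CPM in WT and 60.9, 57.4 and 92.0 CPM in KI. The lowest KI library stood well above the highest WT library in every region. *Lgals3bp* rose 6.98-fold in the cerebellum (log2 fold change 2.80 ± 0.343 SE, adjusted p = 0.000277, edgeR) and 4.52-fold in the striatum (2.18 ± 0.332, adjusted p = 0.00350). Its fold of 3.33 in the prefrontal cortex missed the threshold (1.73 ± 0.336, adjusted p = 0.0652), and the difference of the effect between cerebellum and prefrontal cortex, 1.07 with a 95% confidence interval from 0.09 to 2.04, was not called (adjusted p = 0.758, edgeR). For the mean of the 3 regions its log2 fold change was 2.24 (adjusted p = 2.54e-06, edgeR).

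**Figure D3:**
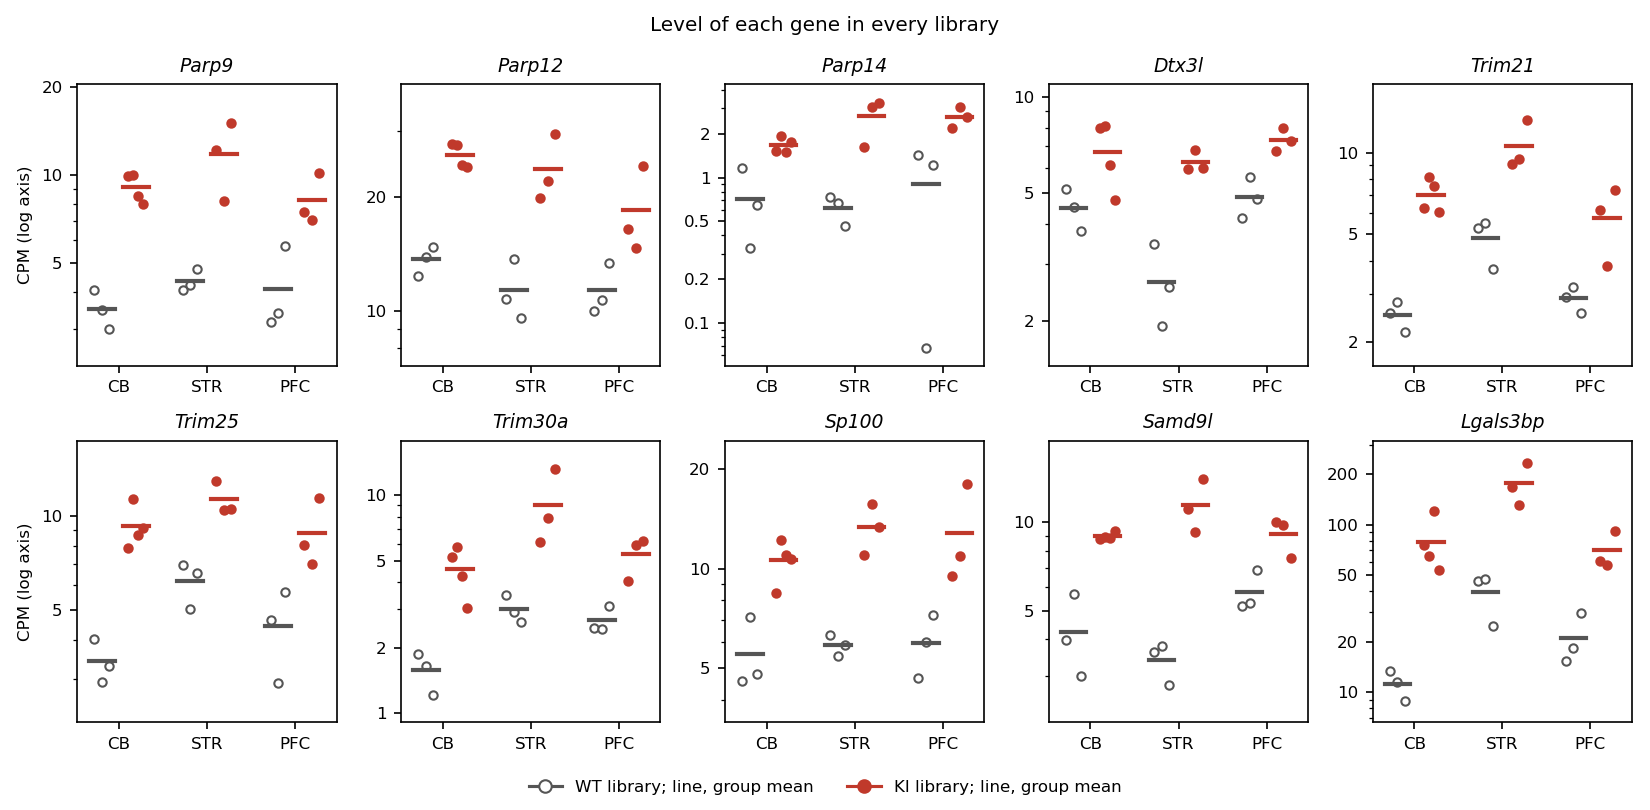
Level of each of the 10 genes in every library, as CPM on a log axis (y axis, its own range in each panel) by region (x axis); open grey points are WT libraries, red points KI libraries, and lines the group means. In all panels the KI libraries lie above the WT libraries of the same region except for *Dtx3l* in the cerebellum, where KI replicate 4 at 4.78 CPM lies within the WT range of 3.80 to 5.14 CPM.

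No difference of the KI effect between regions was called for any of the 10 genes. Among all genes, 0.0119% were called for cerebellum against striatum, 0.0178% for cerebellum against prefrontal cortex and 0.0% for striatum against prefrontal cortex, so that calls of this kind were rare altogether. At an unadjusted p under 0.05 stood *Samd9l* for cerebellum against striatum, with a difference of -0.68 on the log2 scale, *Lgals3bp* for cerebellum against prefrontal cortex and *Samd9l* for striatum against prefrontal cortex. The calls that a gene had in some regions and not in others are therefore not shown to be regional differences.

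The WT levels of some of the 10 genes differed between regions. Between cerebellum and striatum 5 of the 10 were called, against 56.5% of all genes: *Trim21*, *Trim25*, *Trim30a* and *Lgals3bp* were lower in the cerebellum, with log2 differences of -0.93, -0.85, -0.92 and -1.81, and *Dtx3l* was higher, with 0.76. Between cerebellum and prefrontal cortex *Lgals3bp* alone was called, lower in the cerebellum by a log2 difference of -0.90, against 52.0% of all genes. Between striatum and prefrontal cortex 4 were called, against 30.5% of all genes, with *Trim21* (0.74) and *Lgals3bp* (0.90) higher in the striatum and *Dtx3l* (-0.87) and *Samd9l* (-0.77) lower. *Parp9*, *Parp12*, *Parp14* and *Sp100* showed no called difference between regions in WT mice.

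Per kilobase of exon, *Lgals3bp* was the most abundant of the 10 in each group, with cerebellar, striatal and prefrontal WT means of 3.93, 13.8 and 7.38 CPM per kb. *Parp12* was second with WT means of 3.43, 2.84 and 2.85 CPM per kb, and *Parp14* was last with 0.0763, 0.0669 and 0.0974. The other genes lay between 0.382 CPM per kb for *Trim30a* in the cerebellum and 1.30 CPM per kb for *Trim21* in the striatum. In KI mice *Lgals3bp* reached 27.6, 62.4 and 24.6 CPM per kb, *Parp12* 6.47, 5.95 and 4.62, and *Parp14* 0.181, 0.284 and 0.282.

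The KI libraries of a region were not equally high. For 7 of the 10 genes KI replicate 3 was the highest KI library of the striatum, and KI replicate 3 of the prefrontal cortex was again the highest there for 7 of the 10, with median deviations from the WT mean of 1.60 and 1.31 on the log2 scale, against 1.11 and 1.36 in the other striatal and 0.84 and 0.79 in the other prefrontal KI libraries. Whether the libraries numbered 3 of these regions came from the same mouse is not known, so they may not be separate observations. In the cerebellum KI replicate 2 was likewise the highest for 7 of the 10, with a median deviation of 1.45. The libraries numbered 3 were the sole KI libraries of the striatum and prefrontal cortex with more *Xist* than Y-linked RNA, as had 2 of 3 WT libraries in each of these regions; with that ratio as a covariate 7, 8 and 1 of the 10 genes were called in the cerebellum, striatum and prefrontal cortex. Without both libraries numbered 3, 3 of the 10 genes were called in the striatum and 9 for the mean of the regions. Of single libraries, leaving out KI replicate 3 of the striatum left 2 calls there, *Samd9l* and *Lgals3bp*, and leaving out any WT library of the striatum left 3. In the cerebellum 3 calls were left without WT replicate 3, *Trim21*, *Trim25* and *Lgals3bp*, and 4 without WT replicate 2. Log2 fold changes were positive for all 10 genes in all 3 regions whichever library was left out, and all 10 stayed called for the mean of the regions.

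**Figure D4:**
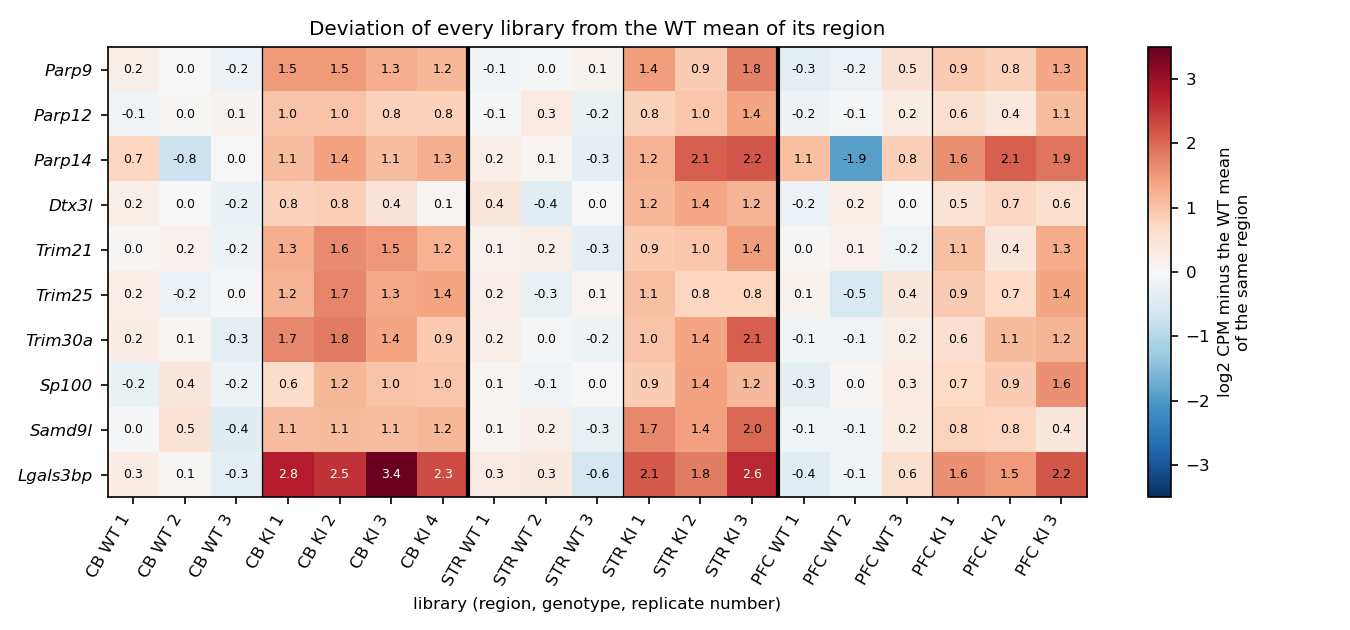
Log2 CPM of each gene (rows) in each of the 19 libraries (columns) minus the WT mean of the same region; red is above and blue below that mean, thin lines separate the genotypes and thick lines the regions. KI replicate 3 stands highest for most genes in both forebrain regions, with median deviations of 1.60 and 1.31, and the darkest blue cell is *Parp14* in WT replicate 2 of the prefrontal cortex, at -1.90.

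Of the wider PARP family, 0 of 13 other genes was called in any region by edgeR, and 2, 4 and 2 had an unadjusted p under 0.05 in the cerebellum, striatum and prefrontal cortex, beside 10.1%, 8.12% and 5.93% of all genes. For the mean of the regions 2 of the 13 were called, *Zc3hav1*, the zinc finger antiviral protein that binds viral RNA, with a log2 fold change of 1.10 (adjusted p = 0.00311, edgeR), and *Parp10*, with 0.69 (adjusted p = 0.0257); they and the TRIM genes called for that mean are named after their values were seen. The median log2 fold change of the family was -0.01, -0.03 and 0.10 in the 3 regions. None of 6 genes that remove or read ADP-ribose and none of 4 other Deltex ligases was called in any region or for the mean; 1, 1 and 0 of the former and 0 of the latter had an unadjusted p under 0.05 in the regions.

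Among 67 other TRIM genes in the annotation, 44 could be tested and 0 was called in a single region, with 8, 9 and 4 at an unadjusted p under 0.05 in the same order of regions. For the mean of the regions 4 were called: *Trim12c*, *Trim34a* and *Trim56* were higher, with log2 fold changes of 1.06, 1.33 and 0.69, and *Trim9*, a ligase of neurons, was lower, with -0.33. Several further TRIM genes had large fold changes at low counts and were not called, as the plot of related genes shows. The 44 had medians of 0.05, 0.04 and 0.04. Those of the 10 genes, which were chosen with earlier results of these data known, were 1.30, 1.33 and 1.00.

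Of 13 other genes of nuclear bodies, including *Pml*, *Daxx*, *Atrx* and the SUMO genes, *Sp110*, a relative of *Sp100*, was the sole call, in the striatum, where its mean rose from 0.874 CPM in WT to 2.28 CPM in KI (log2 fold change 1.38, edgeR adjusted p = 0.0247). The 13 had medians of 0.06 (cerebellum), -0.01 (striatum) and 0.01 (prefrontal cortex). Of 6 galectin genes, *Lgals9* was called in the cerebellum and the striatum, where its mean rose from 9.67 to 22.3 CPM and from 16.4 to 32.4 CPM, and the gene of galectin-3, a binding partner of LGALS3BP, was not called, with log2 fold changes of 1.16, -0.01 and -0.51 for *Lgals3* in the cerebellum, striatum and prefrontal cortex.

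Among 10 genes that work with *Trim25* in RNA sensing, the cerebellum had 3 called higher, the striatum 4 and the prefrontal cortex 0, where 5 had an unadjusted p under 0.05 by edgeR. The RNA sensor genes *Ddx58* (RIG-I) and *Ifih1* (MDA5) and the ubiquitin-like modifier gene *Isg15* rose in the cerebellum and the striatum, with log2 fold changes of 1.50 and 1.80, 1.42 and 1.46, and 2.07 and 2.89. *Dhx58*, which codes for the regulator LGP2, was called in the striatum (1.74, adjusted p = 0.0317, edgeR). Of 9 genes of ISGF3 and interferon regulatory factors, 4, 4 and 3 were called higher in the cerebellum, striatum and prefrontal cortex. Among them *Irf9*, of ISGF3, and *Irf7* were called in all 3 regions. In the prefrontal cortex the mean of *Irf9* rose from 12.0 to 33.4 CPM, and the log2 fold change of *Irf7* was 2.25. *Stat2* was called in the striatum, with a log2 fold change of 0.52, and had -0.22 in the cerebellum.

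**Figure D5:**
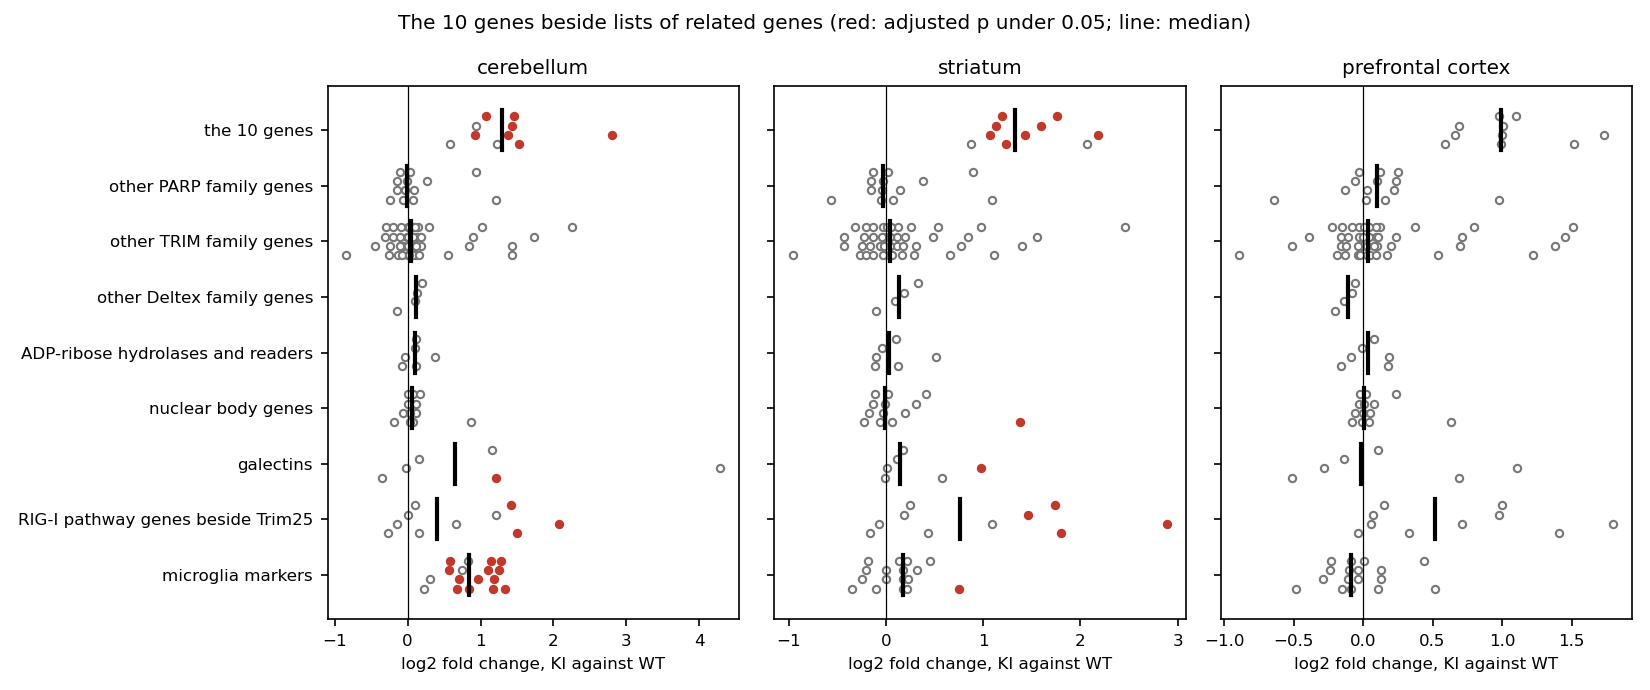
Log2 fold change of KI against WT (x axis) of every tested gene in the group of 10 and in 8 lists of related genes or markers (y axis), in the cerebellum, striatum and prefrontal cortex; red points have an adjusted p under 0.05, and black lines are medians. The 10 genes have medians of 1.30, 1.33 and 1.00, the other PARP and TRIM genes have medians between -0.03 and 0.10, and the microglia markers have 13 red points in the cerebellar panel, 1 in the striatal and 0 in the prefrontal one.

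Microglia markers moved with the group in the cerebellum. Of 17 such markers 13 were called higher there, with a median log2 fold change of 0.84, and their summed level was 223 to 227 CPM in the WT libraries and 352 to 475 CPM in the KI libraries; *C1qa* rose from a mean of 7.45 to 18.1 CPM. Their part in the cerebellar result was not tested, and in bulk tissue more cells of a type cannot be told apart from more RNA per cell. In the striatum the sum was 1010 to 1160 CPM in WT and 1110 to 1280 CPM in KI, and 1 marker was called, the protease gene *Ctss*, with a log2 fold change of 0.75. In the prefrontal cortex the sum was 920 to 1010 CPM in WT and 876 to 1070 CPM in KI, and edgeR called none, with 3 at an unadjusted p under 0.05. These were *Ctss*, which was higher in KI (log2 fold change 0.52), and *Gpr34* and *P2ry12*, which were lower (-0.48 and -0.24). The median log2 fold change of the 10 genes was 1.33 (striatum) and 1.00 (prefrontal cortex), and the microglia medians were 0.17 and -0.09. The part of microglia in the striatal and prefrontal results was not tested either. Within the striatum the summed striatal markers were 4900 to 5930 CPM in WT and 2950 to 4240 CPM in KI, with none of the 5 called, and their part in the striatal result was not tested. No endothelial, astrocyte, oligodendrocyte, choroid plexus or blood marker was called in any region, of 10, 8, 6, 5 and 4 tested. The choroid plexus markers varied widely between libraries of a group. Their summed level in the cerebellum was 21.4 to 1960 CPM in WT and 11.7 to 4930 CPM in KI. Their median log2 fold change there was 0.94, and their part in the cerebellar result was not tested. Of the 5 cerebellar markers 1 was called in the cerebellum, and the median log2 fold change of the 5 there was -0.28. The called gene was the Purkinje cell marker *Pcp2*, whose mean fell from 189 to 84.8 CPM (log2 fold change -1.16, adjusted p = 0.000196, edgeR).

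The genes outside the group whose deviations from the WT mean followed the median of the 10 most closely over the 19 libraries were *Eif2ak2*, the RNA-activated kinase PKR, with a root mean square difference of 0.215 on the log2 scale, *Gbp2* with 0.229, *Lgals9* with 0.235, the class I histocompatibility gene *H2-K1* with 0.244 and *Gbp9* with 0.268. *Gbp2* and *Gbp9* code for guanylate-binding proteins. Within the group the same distance was smallest for *Parp9* (0.204) and *Trim21* (0.228) and largest for *Parp14* (0.706) and *Lgals3bp* (0.878). *Eif2ak2* was called in the cerebellum and striatum, with log2 fold changes of 1.48 and 1.26, and had 0.74 in the prefrontal cortex (adjusted p = 0.399, edgeR).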

How the data were processed

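RNA was extracted with Trizol, libraries were made with the SMART-Seq v4 and Nextera XT kits, which do not mark strand, and sequenced on an Illumina HiSeq instrument. The authors deposited a raw count of reads per Ensembl gene and library, and a signal table in which each library's counts are divided by its own size factor. The submitters' processing notes name bcl2fastq 2.17.1.14, STAR 2.5.2b, HTSeq, DESeq2 1.10.1 and GRCm38.p3 without their roles, and the paper's methods name Cufflinks and Cuffdiff; the annotation release and the use of strand are not given in the sources used here. Of 41128 identifiers, 40254 had an entry in GENCODE M21, which gave names, positions and exon lengths on GRCm38. Promoter windows are from RefSeq.

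Groups came from the labels. Counts were fitted in R 4.3.3 with edgeR 4.0.16 (TMM, filterByExpr, a mean for each of 6 groups, 13 residual degrees of freedom, common biological coefficient of variation 0.191), and P values were adjusted over the 16841 genes tested. Log2 CPM used a prior count of 2. Confidence intervals are at 95%. The test code was checked on simulated data. The alternatives were DESeq2 1.42.0, its size factors in edgeR, no filter, at least 10 counts in every library, regions fitted alone, the replicate number as a block, a sex covariate from *Xist* and Y-linked counts, limma 3.58.1 on the log2 of the deposited normalized table, and each library left out in turn. Leaving out 2 libraries together and fitting the mouse as a block were alternatives chosen later, with the data in view. The 10 genes and all lists were chosen with earlier results of these data known. The plan was to name called genes from each list, at most 5. Not every such gene is named, and some genes that were not called are named as well. The values of 1 further list gene are not reported here. The paper gives 3 to 4 mice per genotype, and the labels do not tie libraries to mice. The reads carry no molecular identifiers. P values measure the spread between these libraries.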

Additional observations from a re-analysis of the deposited data

How the results depend on the processing

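Over the 10 genes and 3 regions, 867 values were recomputed under the alternatives: 798 kept their direction and side of the threshold, 53 lost the call, 16 gained it and 0 changed direction. The 798 are not a measure of stability. Many of the alternatives left out a library of another region than that of the value. In the prefrontal cortex, where no gene was called, 280 values stayed uncalled and none could lose a call. Of the 53 lost calls 39 were in the striatum. The count of the 10 genes called in the striatum, 8, was 2 with each region fitted alone and 3 without the 2 KI libraries numbered 3, both of which test fewer libraries. In the prefrontal cortex, 0, it was 3 with DESeq2 and 1 each with no filter, with the sex covariate and with limma. Leaving out each library in turn gave 3 to 8 calls among the 10 genes in the cerebellum, 2 to 9 in the striatum and 0 to 1 in the prefrontal cortex. Over all genes, called in either direction, the 140, 98 and 18 calls in the cerebellum, striatum and prefrontal cortex were 336, 214 and 52 with DESeq2; in the striatum 46 with the region alone, 37 without the libraries numbered 3 and 151 in limma's voom fits with and without the mouse as a block; in the prefrontal cortex 0, 9 and 8 with the region alone, the replicate block within regions and the voom fits. Left-out libraries gave 73 to 155, 36 to 121 and 5 to 19. With the replicate block within regions, 7, 6 and 0 of the 10 genes were called, and 9 for the mean of the regions, where *Parp14* lost its call. WT and KI libraries of a number did not deviate together (r -0.25 to 0.17 over 9 pairs, against -0.27 to 0.26 with other numbers). A low correlation cannot settle whether the numbers pair genotypes, and the labels do not say. With the mouse as a block over striatum and prefrontal cortex, all 10 genes stayed called for the mean of the regions. At least 10 counts in every library left *Parp14* untested. The cause of these shifts was not tested. The depth limits *Parp14* most, with 1 to 49 counts a library.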
